A study of Mus musculus with 8 samples.

Results

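Collagens and laminins are the main structural proteins of the extracellular matrix. In the brain they form the basement membranes that wrap blood vessels and line the pial surface, and the fibrils of the meninges and of the sheaths of larger vessels. Fibrillar collagens (types I, II, III, V, XI, XXIV and XXVII) pack into fibres. Type IV collagen and the laminins instead polymerise into separate sheets that are linked to each other in the basement membrane. Laminins are trimers of an alpha, a beta and a gamma chain, each encoded by its own gene.

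The genes described here are those named Col, number, a, number, or Lam followed by a, b or c and 1 digit, with at least 0.5 CPM (counts per 1000000 counts on genes) in at least 2 libraries. Of 55 such symbols in the count tables, 54 reached that level (43 collagens and 11 laminins), among 15666 of 24420 genes that did. Col10a1, a cartilage collagen with 12 reads over all libraries, did not. The 54 comprise 11 fibrillar collagens and 19 basement membrane genes (8 collagens and 11 laminins). The other 24 are 6 collagen VI chains, 9 fibril-associated, 5 network or anchoring and 4 transmembrane collagens.

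RNA of prefrontal cortical slices was sequenced from male mice that the sample labels give as 5 to 6 weeks old, and the series description as up to 8 weeks. The romidepsin group (2 libraries) and the saline group (3 libraries) were heterozygous Shank3+/ΔC mice, in which 1 copy of the synaptic scaffold gene Shank3 lacks C-terminal exon 21. Romidepsin, a histone deacetylase inhibitor, was given intraperitoneally on 3 days, 1 dose of 0.25 mg/kg a day, and the cortex was taken 1 day after the final dose. The wild-type group (3 libraries) held littermates without the deletion, for which no saline treatment is labelled, so genotype and saline injection cannot be told apart. Counts on genes per library were 10143846 and 9855883 (romidepsin), 7783537 to 15156318 (saline) and 12046120 to 13280615 (wild type). The labels call the cells neurons, but all 15 endothelial, all 12 pericyte and smooth muscle and all 15 meningeal fibroblast markers were detected beside all 10 neuronal ones. Olfactory markers were high in saline libraries 2 and 3. Meningeal fibroblast markers were high in saline libraries 1 and 2 and in romidepsin library 1. Values are given beside the results. In such bulk RNA, fewer cells of a type and less RNA per cell cannot be told apart.

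Per unit of length, the collagen VI chain Col6a1 and the type IV pair were the most abundant members in wild-type cortex. Levels here are CPM, scaled between libraries by the trimmed mean of M-values and divided by kilobases of annotated exon (CPM per kb). That length joins the exons of all annotated transcripts. It was 12.4 kb for Col1a2, 8.49 kb for Col5a1, 8.33 kb for Col6a2 and 4.38 kb for Col6a1. Where the expressed transcript is shorter than this, the level per kb is too low, so the order of genes holds on this scale only. Col6a1, a chain of the beaded microfilaments that sit beside basement membranes, stood at 25.7 CPM per kb. The other collagen VI chains were well below it, from Col6a2 at 2.64 to Col6a6 at 0.0291 CPM per kb, the lowest of all members. Col4a2 and Col4a1, the chains of the type IV network found in nearly all basement membranes, followed at 12.5 and 8.45 CPM per kb. Behind them came Col19a1, a basement membrane zone collagen that interneurons also express, at 5.68, and Lamc1, the commonest laminin gamma chain, at 4.95 CPM per kb. Col25a1, a transmembrane collagen of neurons, stood at 4.42, and Lamb2, the laminin beta chain of vessels and synapses, at 4.26 CPM per kb. The most abundant fibrillar chain per kb was Col5a1, which nucleates fibrils, at 3.77. Col1a2, Col1a1 and Col3a1, which make most of the fibres of connective tissue, stood at 1.77, 1.24 and 0.383 CPM per kb. Among the laminin alpha chains levels per kb were close to each other, from 1.13 for Lama3 to 0.442 for Lama1. Also at the low end were the kidney-type chains Col4a4 and Col4a3, at 0.0523 and 0.0292 CPM per kb, each with 35 reads over all libraries.

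**Figure D1:**
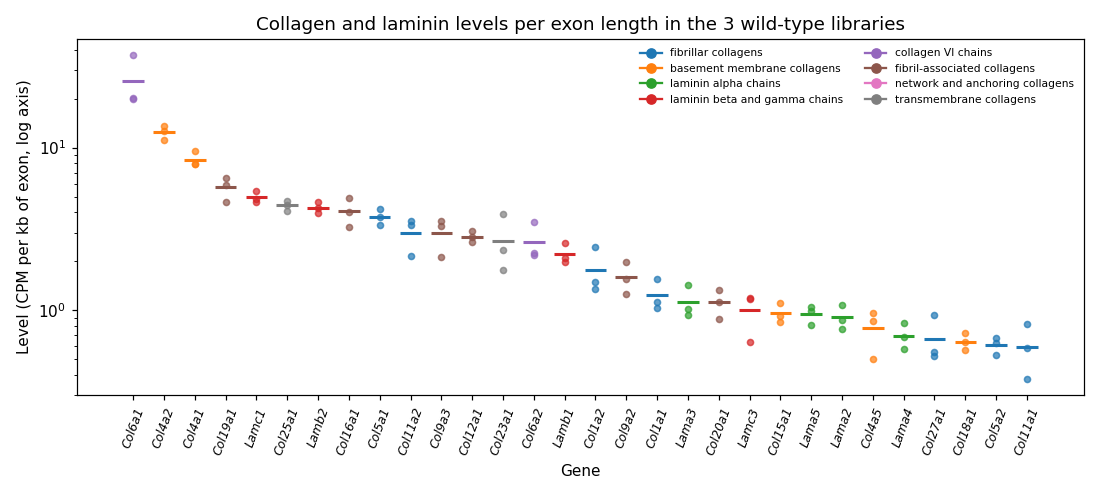
Levels of 30 abundant collagen and laminin genes in the 3 wild-type libraries, in CPM per kb of exon on a log axis. Points are libraries, bars are means and colours are classes; Col6a1, Col4a2 and Col4a1 lead, and Col1a1 stands at 1.24 CPM per kb.

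No member passed the test in any comparison, at a Benjamini-Hochberg adjusted p under 0.05 over all genes in edgeR's quasi-likelihood fit. Between saline and wild type the test called 0 of 54 members and 0.00638% of all genes. At an unadjusted p under 0.05 there were 3 members higher (3.48% of all genes) and 3 lower (4.72%), or 6 in either direction (8.2%). Between romidepsin and saline it called 0 members and 0% of all genes, with 2 members higher (1.75% of all genes) and 1 lower (1.49%), or 3 in either direction (3.24%), at an unadjusted p under 0.05. Between romidepsin and wild type it called 0 members and 0.0128% of all genes, with 1 member higher (1.47%) and 2 lower (1.77%) at an unadjusted p under 0.05, or 3 in either direction (3.24%). Groups did not overlap in 3 members between saline and wild type (12.4% of all genes), 1 higher (6.19%) and 2 lower (6.23%). Between romidepsin and saline they did not overlap in 7 members (20.9% of all genes), 5 higher (10.9%) and 2 lower (10%). Between romidepsin and wild type they did not overlap in 6 members (18.5% of all genes), 4 higher (9.47%) and 2 lower (9%). Log2 fold changes were above 0 in 28 members in saline against wild type (51.3% of all genes), 28 in romidepsin against saline (49.3%) and 30 in romidepsin against wild type (50.4%). limma-voom called 0 members in each comparison, and DESeq2 called 1, Col4a2 in saline against wild type.

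The major type IV collagen chains, Col4a1 and Col4a2, were at their lowest in the saline group. Col4a2 (chromosome 8, 11312805 to 11449287, GRCm38, plus strand) stood at 77.5 and 78.5 CPM under romidepsin, at 60.8, 43.9 and 63.0 in the saline group and at 73.9, 83.3 and 90.1 in wild type. Col4a1 (11198423 to 11312826, minus strand) stood at 60.0 and 60.0 CPM under romidepsin, at 51.4, 33.3 and 47.0 in the saline group and at 58.9, 59.2 and 71.0 in wild type. For both genes every saline library lay below every library of the other groups, with the second saline library lowest. These values rest on 418 to 1153 reads per library for Col4a2 and 317 to 909 for Col4a1.

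Saline against wild type, Col4a2 was at 0.678-fold (95% interval 0.569 to 0.808; log2 fold change -0.56, SE 0.12), the smallest p among the members. It did not pass over all genes in edgeR (adjusted p = 0.202), and 15 of 16 alternative settings also left it above the threshold. The exception was DESeq2 (adjusted p = 0.0153), and the range over the 16 settings reached 0.872. Col4a1 was at 0.699-fold (95% interval 0.574 to 0.851; log2 fold change -0.52, SE 0.13; edgeR adjusted p = 0.314). Romidepsin against saline, Col4a2 was at 1.39-fold (interval 1.15 to 1.70) and Col4a1 at 1.36-fold (1.09 to 1.70), with an edgeR adjusted p = 1.00 for both. Romidepsin against wild type, they were at 0.946-fold (0.779 to 1.15) and 0.951-fold (0.765 to 1.18). The direction of that last difference in Col4a1 turned without wild-type replicate 3 (log2 fold change 0.02). The saline libraries enter both of the first comparisons, so the opposite directions are not separate observations.

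Col4a1 and Col4a2 lie head to head, and their RefSeq starts on GRCm38.p6 overlap by 22 bases. The stretch around the starts, from position 11312801 to 11312830 of chromosome 8 on the plus strand (the strand of Col4a2), is shown because both chains are transcribed outward from it. Capitals mark the bases within both annotated transcripts, and the letters GGGCGG, the core of a GC box, lie inside them.
Col4a1 and Col4a2 starts: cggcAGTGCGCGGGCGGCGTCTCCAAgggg
Reads of the pair kept a near constant proportion. Col4a2 had 1.29 and 1.31 reads per Col4a1 read under romidepsin, 1.18, 1.32 and 1.34 in the saline group and 1.25, 1.41 and 1.27 in wild type. The ratio overlapped between all groups.

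**Figure D2:**
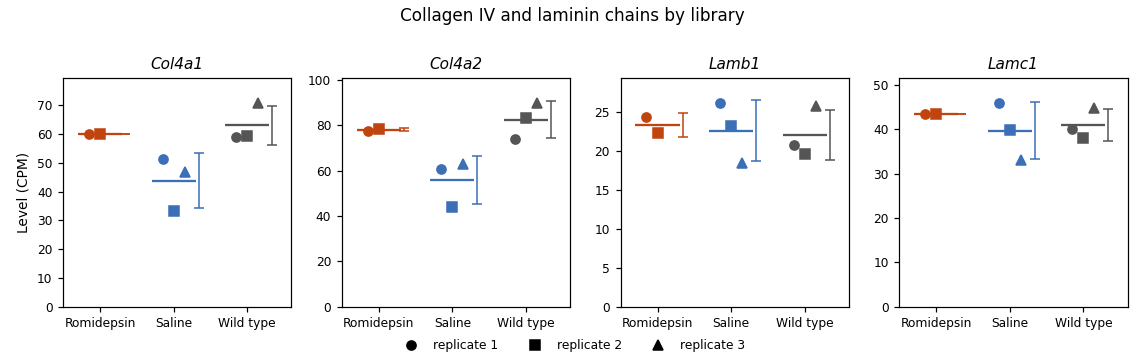
Levels in CPM of the collagen IV chains Col4a1 and Col4a2 and the laminin chains Lamb1 and Lamc1 in each library, with group means (horizontal bars) and SD (error bars) of 2 romidepsin, 3 saline and 3 wild-type libraries. For Col4a1 the saline libraries reach at most 51.4 CPM, against at least 58.9 in wild type, while for Lamc1 all groups overlap.

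For the laminin chains saline and wild type overlapped in all 11 genes. Lamc1, which most laminin trimers contain, averaged 43.5 ± 0.0543 CPM under romidepsin (SD, n = 2), 39.7 ± 6.46 in the saline group (n = 3) and 41.0 ± 3.56 in wild type (n = 3). Its saline to wild-type fold was 0.977, with a 95% interval of 0.828 to 1.15. The log2 fold change, -0.03, turned to 0.04 with wild-type replicate 3 left out and to 0.07 with saline replicate 3 left out. Lamb1, the beta chain of most endothelial and glial basement membranes, stood at 24.4 and 22.3 CPM under romidepsin, 26.2, 23.2 and 18.4 in the saline group and 20.8, 19.6 and 25.8 in wild type. Lamb2 averaged 26.4 ± 0.0580, 24.6 ± 2.41 and 25.9 ± 2.03 CPM in the romidepsin, saline and wild-type groups.

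Of the alpha chains, which carry the cell-binding domains, Lama2 is the chain of astrocytes and pericytes. It stood at 19.7 and 15.3 CPM under romidepsin, 21.9, 16.8 and 15.5 in the saline group and 12.6, 14.2 and 17.7 in wild type, with overlap between all groups. Lama2 was at 1.24-fold in saline against wild type (95% interval 0.972 to 1.57; edgeR adjusted p = 0.650). Lama4 and Lama5, the alpha chains of endothelium, averaged 9.39 ± 2.09 and 10.9 ± 2.48 CPM under romidepsin, 9.21 ± 0.733 and 9.88 ± 1.54 in the saline group, and 8.39 ± 1.54 and 10.8 ± 1.37 in wild type. Lama1, a chain of the pial basement membrane, ranged from 3.59 to 5.24 CPM under romidepsin, 2.94 to 6.28 in the saline group and 3.03 to 6.56 in wild type. Lama3, the alpha chain of epithelial anchoring, averaged 10.5 ± 2.35, 12.3 ± 0.975 and 12.1 ± 2.86 CPM in the romidepsin, saline and wild-type groups, and was at 0.857-fold in romidepsin against saline (0.632 to 1.16).

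Reads of Col4a1 and Col4a2 were therefore set against reads of all 11 laminins within each library, a ratio that no scaling between libraries can move and that was chosen after the values were seen. It was 0.778 and 0.890 under romidepsin, 0.611, 0.473 and 0.753 in the saline group, and 0.892, 0.914 and 0.886 in wild type. The saline libraries lay below both other groups, and the first romidepsin library lay between the saline and wild-type libraries. Set against the summed reads of the 15 endothelial markers, the 2 collagen chains stood at 0.331 and 0.366 under romidepsin, 0.294, 0.262 and 0.335 in the saline group and 0.339, 0.329 and 0.347 in wild type. On that scale the groups overlapped.

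As a set, endothelial markers were also lowest in the saline group, although the saline and romidepsin ranges of their summed level overlapped. Their summed level was 378 to 415 CPM under romidepsin, 295 to 382 in the saline group and 392 to 464 in wild type, with 0 of 15 passing. In saline against wild type all 15 had log2 fold changes below 0, with a median of -0.41 (0.01 over all genes tested), and for 9 of them the groups did not overlap (6.23% of all genes). In romidepsin against saline, 14 of 15 were above 0, with a median of 0.24. In romidepsin against wild type, 10 of 15 were below 0, with a median of -0.20. Without overlap between these 2 groups, 5 were lower (9% of all genes) and 2 higher (9.47%). Flt1, a receptor for vascular endothelial growth factor, stood at 0.64 below wild type on the log2 scale, with an edgeR adjusted p = 0.180. Flt1 passed in DESeq2 (0.00702) and without saline replicate 1 (0.0216), in a range up to 0.675 over the 16 settings. Eng, an endothelial coreceptor, had a log2 fold change of -0.47 (edgeR adjusted p = 0.272). Pericyte and smooth muscle markers summed to 186 to 234 CPM under romidepsin, 156 to 204 in the saline group and 166 to 218 in wild type. In romidepsin against saline, 11 of these 12 were above 0, with a median of 0.28, and 4 were higher without overlap (10.9% of all genes). Of the endothelial markers, 4 were also higher without overlap in that comparison. In saline against wild type, 8 of the 12 pericyte and smooth muscle markers were above 0, with a median of 0.05. The part of vessel content in the type IV values was not tested.

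The multiplexins, basement membrane collagens with interrupted triple helices, overlapped between saline and wild type. Col15a1, a multiplexin at the interface of basement membrane and fibrils, averaged 4.43 ± 0.0209, 5.02 ± 1.76 and 6.08 ± 0.828 CPM in the romidepsin, saline and wild-type groups. Both romidepsin libraries lay below every wild-type library, at 0.728-fold (0.489 to 1.08; edgeR adjusted p = 0.999). Its relative Col18a1, the source of endostatin, stood at 6.32 and 3.49 CPM under romidepsin, 6.08, 2.94 and 4.09 in the saline group and 5.05, 4.44 and 3.98 in wild type, with overlap between all groups.

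Col4a5 and Col4a6, which form the minor type IV trimer of smooth muscle and also lie head to head, on chromosome X, did not share the low saline values of the major chains. Col4a5 stood at 6.72 and 6.06 CPM under romidepsin, 9.42, 5.36 and 3.46 in the saline group and 3.37, 5.72 and 6.49 in wild type. Col4a6 averaged 2.11 ± 0.654, 1.97 ± 0.480 and 1.29 ± 0.588 CPM in the romidepsin, saline and wild-type groups, with a romidepsin to wild-type fold of 1.63 (0.868 to 3.05). Col4a3 and Col4a4 had at most 8 reads in any library, too few to compare the groups. Over the 19 basement membrane genes the median log2 fold change was 0.02 in saline against wild type (11 above 0), 0.03 in romidepsin against saline (12 above 0) and 0.08 in romidepsin against wild type (13 above 0). Over all genes tested the medians were 0.01, -0.0024 and 0.0014. With 1 library left out each of the basement membrane medians changed sign, to -0.16 without saline replicate 1 in saline against wild type. They changed to -0.15 in romidepsin against saline and -0.07 in romidepsin against wild type, both without romidepsin replicate 1.

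The fibrillar collagens differed between the libraries of a group. The chains of fibroblasts, Col1a1, Col1a2 and Col3a1, were higher in the first and second saline libraries than in the third. The first romidepsin library was as high as the second saline library for Col1a2, and above the first saline library for Col3a1. For Col1a2 the third wild-type library also reached the level of the second saline library. Col1a1 (chromosome 11, 94936224 to 94953042) stood at 9.98 and 8.11 CPM under romidepsin, 17.3, 11.2 and 5.89 in the saline group, and 7.41, 6.78 and 10.2 in wild type. Col1a2, its partner in the type I trimer (chromosome 6, 4504814 to 4541544), stood at 30.6 and 22.5 CPM under romidepsin, 38.2, 30.6 and 15.6 in the saline group and 18.4, 16.9 and 30.6 in wild type. Col3a1, the type III chain of pliable tissues and vessel walls (chromosome 1, 45311538 to 45349706), stood at 7.61 and 3.29 CPM under romidepsin, 7.13, 8.62 and 3.84 in the saline group and 3.54, 3.76 and 3.98 in wild type. Groups overlapped for all of them, and the third saline library was the lowest of all 8 for Col1a1 and Col1a2.

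Saline against wild type, Col3a1 was at 1.76-fold (95% interval 1.11 to 2.79; log2 fold change 0.82, SE 0.31; edgeR adjusted p = 0.492). Col1a1 was at 1.46-fold (0.914 to 2.33; edgeR adjusted p = 0.670) and Col1a2 at 1.31-fold (0.736 to 2.34; edgeR adjusted p = 0.819). Without saline replicate 1 the log2 fold change of Col1a1 was 0.09, against 0.55 with all libraries. Romidepsin against saline, the log2 fold changes were -0.39 for Col1a1, -0.12 for Col1a2 and -0.28 for Col3a1, and these small differences turned with 1 library left out. Without saline replicate 1 that of Col1a1 was 0.06 and that of Col1a2 was 0.19, and without romidepsin replicate 2 that of Col1a2 was 0.09 and that of Col3a1 was 0.20. Romidepsin against wild type, Col1a1 was at 1.11-fold and Col3a1 at 1.45-fold, and both directions turned without romidepsin replicate 1 (log2 fold changes -0.01 and -0.20).

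The promoter tables held Col1a2 and Col3a1, and the 150 bases before their RefSeq starts on GRCm38.p6 (plus strand) are shown because both chains had their highest values in saline libraries. They span positions 4505468 to 4505617 of chromosome 6 and 45311388 to 45311537 of chromosome 1. The Col1a2 window lies inside the gene span given above, because that span comes from another annotation, which starts the gene earlier, at 4504814. Both strands were searched for the CCAAT box, for the letters TATAAA of a TATA box and for the GC box core GGGCGG, and capitals mark the matches.
Col1a2: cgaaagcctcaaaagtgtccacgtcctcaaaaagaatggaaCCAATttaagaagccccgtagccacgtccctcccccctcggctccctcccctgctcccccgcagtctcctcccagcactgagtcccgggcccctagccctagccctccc
Col3a1: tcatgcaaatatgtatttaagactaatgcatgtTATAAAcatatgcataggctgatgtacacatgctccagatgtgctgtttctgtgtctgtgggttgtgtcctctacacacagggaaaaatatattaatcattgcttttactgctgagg
The CCAAT of Col1a2 starts 109 bases and the TATAAA of Col3a1 117 bases before the start. In the 250 bases before the start, CCAAT was found in 14 of 39 members with a promoter in the tables (35.9%) and in 33.9% of all 32851 promoters. TATAAA was found in 4 of 39 (10.3%, against 12.4%) and GGGCGG in 23 of 39 (59.0%, against 32.7%). The 2 shares differ in unit. A member counted if any of its promoters matched (Col18a1, Col6a2, Col9a1 and Lamb3 have 2 each), while the share over all promoters counts each promoter singly. A match is a run of letters and says nothing of binding.

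**Figure D3:**
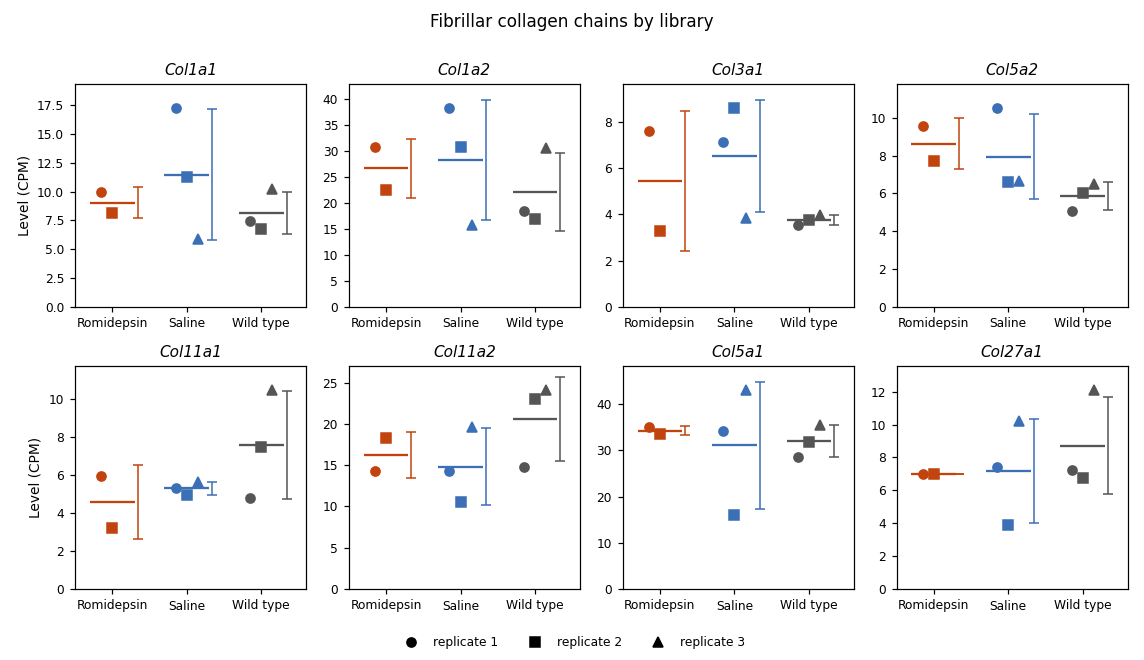
Levels in CPM of 8 fibrillar collagen chains in each library, with group means (horizontal bars) and SD (error bars) of 2 romidepsin, 3 saline and 3 wild-type libraries. The first saline library is the highest for Col1a1 (17.3 CPM) and Col1a2 (38.2 CPM), and the second saline library is the lowest for Col11a2 and Col5a1.

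Other fibrillar chains had another order of libraries. Col5a2, a type V chain, stood at 9.58 and 7.70 CPM under romidepsin, 10.5, 6.62 and 6.65 in the saline group and 5.05, 6.02 and 6.49 in wild type. Wild type lay below both other groups without overlap, narrowly for saline. The folds were 1.38 in saline against wild type (95% interval 1.01 to 1.89; edgeR adjusted p = 0.597) and 1.47 in romidepsin against wild type (1.04 to 2.09; edgeR adjusted p = 0.999). Both mutant groups share the wild-type libraries as their control.

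The type XI chains, which control fibril diameter in cartilage, tended the other way without passing. Col11a1 stood at 5.93 and 3.18 CPM under romidepsin, 5.30, 4.94 and 5.63 in the saline group and 4.80, 7.45 and 10.5 in wild type. Col11a2 stood at 14.3 and 18.3 CPM under romidepsin, 14.3, 10.5 and 19.7 in the saline group and 14.7, 23.0 and 24.1 in wild type. The first wild-type library lay within the romidepsin range for both genes. It lay below every saline library for Col11a1 and within the saline range for Col11a2. Col11a1 was at 0.602-fold in romidepsin against wild type (0.375 to 0.965; edgeR adjusted p = 0.999), and at 0.696-fold in saline against wild type (0.464 to 1.04; edgeR adjusted p = 0.647). Col11a2 was at 0.710-fold in saline against wild type (0.505 to 0.999; edgeR adjusted p = 0.606) and at 0.787-fold in romidepsin against wild type (0.537 to 1.15).

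Col5a1, which nucleates type I fibrils, averaged 34.3 ± 1.05, 31.1 ± 13.8 and 32.0 ± 3.50 CPM in the romidepsin, saline and wild-type groups, with the second saline library at 16.1 CPM. Col27a1, a cartilage fibril chain, stood at 7.01 and 6.98 CPM under romidepsin, 7.39, 3.89 and 10.2 in the saline group and 7.25, 6.78 and 12.1 in wild type. For both genes the saline range enclosed the romidepsin values. Col24a1, known from bone, stood at 3.26 and 4.11 CPM under romidepsin, 4.06, 2.73 and 6.40 in the saline group and 2.53, 3.46 and 4.84 in wild type. Col5a3, another type V chain, averaged 3.77 ± 0.253, 2.74 ± 1.86 and 3.74 ± 1.87 CPM in the romidepsin, saline and wild-type groups. Col2a1, the cartilage chain, stayed under 1.1 CPM in all libraries, with 54 reads in all. Over the 11 fibrillar chains the median log2 fold change was -0.04 in saline against wild type, -0.02 in romidepsin against saline and 0.02 in romidepsin against wild type. Without saline replicate 2 the first of these was 0.26, and without saline replicate 3 it was -0.31.

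Meningeal fibroblast markers were also high in the first and second saline libraries, and in the first romidepsin library. Their median log2 deviation from the wild-type mean was 0.53 and 0.06 under romidepsin, 0.88, 0.76 and 0.01 in the saline group and -0.04, -0.22 and 0.30 in wild type. The 15 markers summed to 237 to 311 CPM under romidepsin, 221 to 374 in the saline group and 199 to 299 in wild type, with 0 passing. Much of that sum, and of the marker reads in the ratio below, came from 2 genes named for their level. These were Pdgfra, at 65.2 to 97.4 CPM over all libraries, and Igf2, at 40.3 to 112 CPM. Of the 15 markers, 13 were above wild type in the saline group, with a median log2 fold change of 0.63. For 4 of them every saline library lay above every wild-type library (6.19% of all genes). In romidepsin against wild type all 15 were above 0, with a median of 0.30, and 3 were higher without overlap (9.47%). In romidepsin against saline 12 were below 0, with a median of -0.25. Slc47a1, a transporter of the meninges, was 1.85 above wild type on the log2 scale in the saline group (edgeR adjusted p = 0.233; DESeq2 adjusted p = 0.0447; up to 0.872 over the alternatives). Reads of Col1a1, Col1a2 and Col3a1 per fibroblast marker read were 0.155 and 0.143 under romidepsin, 0.167, 0.156 and 0.115 in the saline group and 0.148, 0.135 and 0.150 in wild type, so the groups overlapped on that scale. The part of meningeal tissue in the fibrillar values was not tested.

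The choroid plexus markers Ttr, Folr1 and Otx2 were below the low-count limit, and the 4 other markers of that list summed to 4.42 to 4.45 CPM under romidepsin, 4.09 to 8.51 in the saline group and 4.47 to 5.39 in wild type.

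Olfactory markers, of which 6 of 7 were tested, were high in saline libraries 2 and 3. Their median log2 deviation from the wild-type mean was -0.29 and -0.07 under romidepsin, 0.11, 1.38 and 1.49 in the saline group and -0.15, -0.37 and 0.59 in wild type. Eomes, a transcription factor of olfactory bulb projection neurons, stood at 0.0988 and 0.103 CPM under romidepsin, 0.131, 3.78 and 4.86 in the saline group and 0.337, 0.376 and 0.938 in wild type. Cdhr1, a cadherin of mitral and tufted cells, stood at 3.26 and 3.59 CPM under romidepsin, 5.95, 16.5 and 15.4 in the saline group and 4.89, 2.71 and 12.6 in wild type. The summed level, 116 to 119 CPM under romidepsin, 117 to 155 in the saline group and 92.9 to 139 in wild type, was mostly that of Reln, at 76.3 to 97.7 CPM in every library. No olfactory marker passed in any comparison. The part of olfactory tissue in the collagen and laminin values was not tested. In saline against wild type the log2 fold change of Col4a2 was -0.63, -0.42 and -0.64 without saline replicate 1, 2 and 3, and that of Col4a1 was -0.66, -0.35 and -0.56.

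Neuronal markers had median log2 fold changes of 0.0013 in saline against wild type and 0.04 in romidepsin against saline, and astrocyte markers of 0.03 and 0.01.

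**Figure D4:**
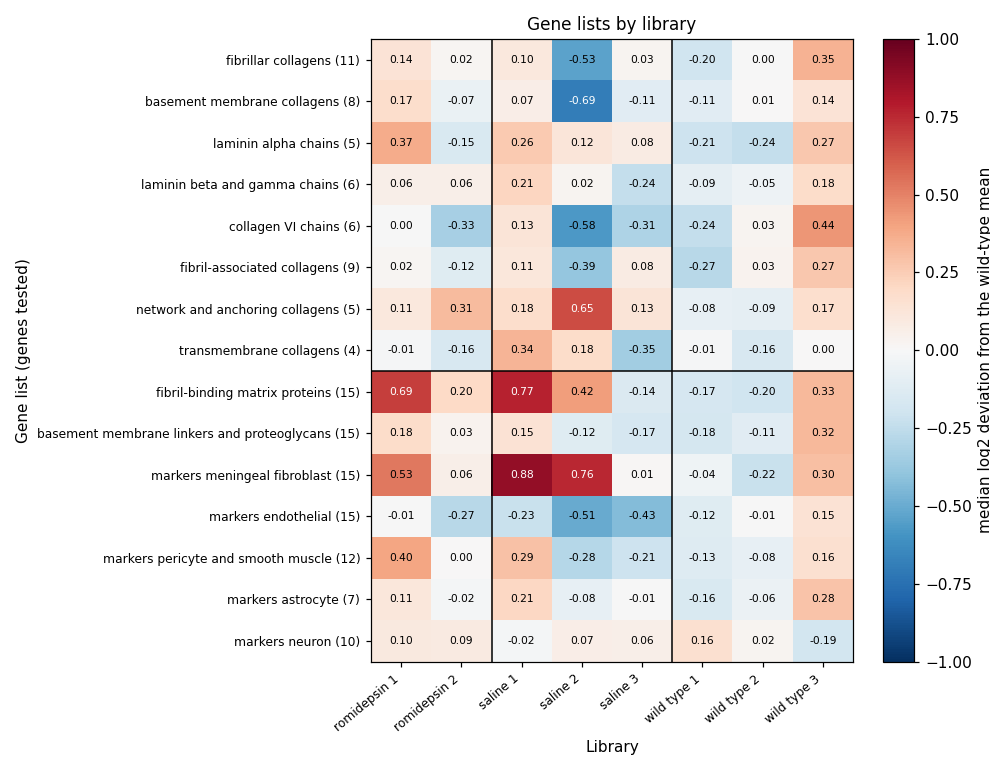
Median log2 deviation from the wild-type mean of each gene list (rows, with the number of genes tested) in each library (columns), on a colour scale from blue (lower) to red (higher). The second saline library is lowest for the basement membrane collagens (-0.69) and fibrillar collagens (-0.53), while fibroblast markers are highest in the first saline library (0.88).

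Fibril types and basement membrane collagen also diverged within libraries. Reads of Col1a1, Col1a2 and Col3a1 per read of Col4a1 and Col4a2, a ratio chosen after the values were seen, were 0.351 and 0.245 under romidepsin, 0.558, 0.653 and 0.231 in the saline group and 0.221, 0.192 and 0.278 in wild type. The first and second saline libraries stood above all others, and the third lay within the wild-type range.

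The short-chain and microfibrillar collagens gave the largest fold and the highest level among the members. Col8a2, a network chain of the corneal and vascular subendothelium, stood at 0.889 and 1.44 CPM under romidepsin, 2.81, 3.89 and 0.768 in the saline group and 0.758, 0.753 and 0.938 in wild type. The first and second saline libraries, with 43 and 37 reads, stood apart from the third with 6. Col8a2 was at 3.11-fold in saline against wild type (95% interval 1.55 to 6.22; edgeR adjusted p = 0.369) and at 0.455-fold in romidepsin against saline (0.208 to 0.994; edgeR adjusted p = 1.00). Its partner chain Col8a1 averaged 2.76 ± 0.423, 2.95 ± 0.576 and 1.99 ± 0.522 CPM in the romidepsin, saline and wild-type groups. Against wild type it was at 1.51-fold in saline (0.987 to 2.32) and 1.39-fold in romidepsin (0.858 to 2.26).

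Col6a1 stood at 98.8 and 85.1 CPM under romidepsin, 105, 55.9 and 118 in the saline group, and 89.0, 86.7 and 162 in wild type. The third wild-type library was the highest and the second saline library the lowest. Col6a2, which assembles with it, had the same extremes, at 29.2 CPM in the third wild-type library and 13.8 CPM in the second saline library. Col6a1 had 4.33 and 4.96 reads per Col6a2 read under romidepsin, 4.17, 4.06 and 6.19 in the saline group and 4.78, 4.80 and 5.56 in wild type. Col6a3, the third chain of the trimer, averaged 3.06 ± 0.557, 4.09 ± 0.915 and 3.74 ± 0.537 CPM in the romidepsin, saline and wild-type groups. In romidepsin against saline Col6a3 was at 0.760-fold (0.497 to 1.16) and Col6a4 at 1.58-fold (0.869 to 2.86). The newer chains Col6a5 and Col6a6 stayed under 0.9 CPM in all libraries.

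Fibril-associated collagens, which coat fibrils, and transmembrane collagens had no member called. Col12a1 averaged 40.7 ± 4.37, 41.4 ± 11.1 and 43.2 ± 3.50 CPM in the romidepsin, saline and wild-type groups, Col19a1 averaged 36.9 ± 0.869, 33.4 ± 3.60 and 39.1 ± 6.59, and Col16a1 averaged 19.2 ± 5.31, 20.4 ± 7.35 and 27.4 ± 5.62. Col19a1 was at 0.856-fold in saline against wild type (95% interval 0.715 to 1.02), and Col16a1 had a log2 fold change of -0.51 (SE 0.30) in romidepsin against wild type. Col9a3 overlaps the gene Tcfl5 on the opposite strand by 234 exonic bases, so its counts can miss reads there or include reads of that gene. Col9a3 averaged 10.7 ± 0.989, 10.4 ± 3.83 and 11.5 ± 2.91 CPM in the same order of groups. Col25a1 averaged 55.2 ± 5.82, 58.7 ± 12.9 and 57.2 ± 4.04 CPM, and Col23a1, another transmembrane chain, averaged 13.4 ± 0.557, 17.4 ± 4.42 and 15.4 ± 6.40 CPM in that order. Col23a1 was lower without overlap in romidepsin than in saline, at 0.759-fold (0.474 to 1.22; edgeR adjusted p = 1.00). Col25a1 was highest in the second saline library, at 73.0 CPM.

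**Figure D5:**
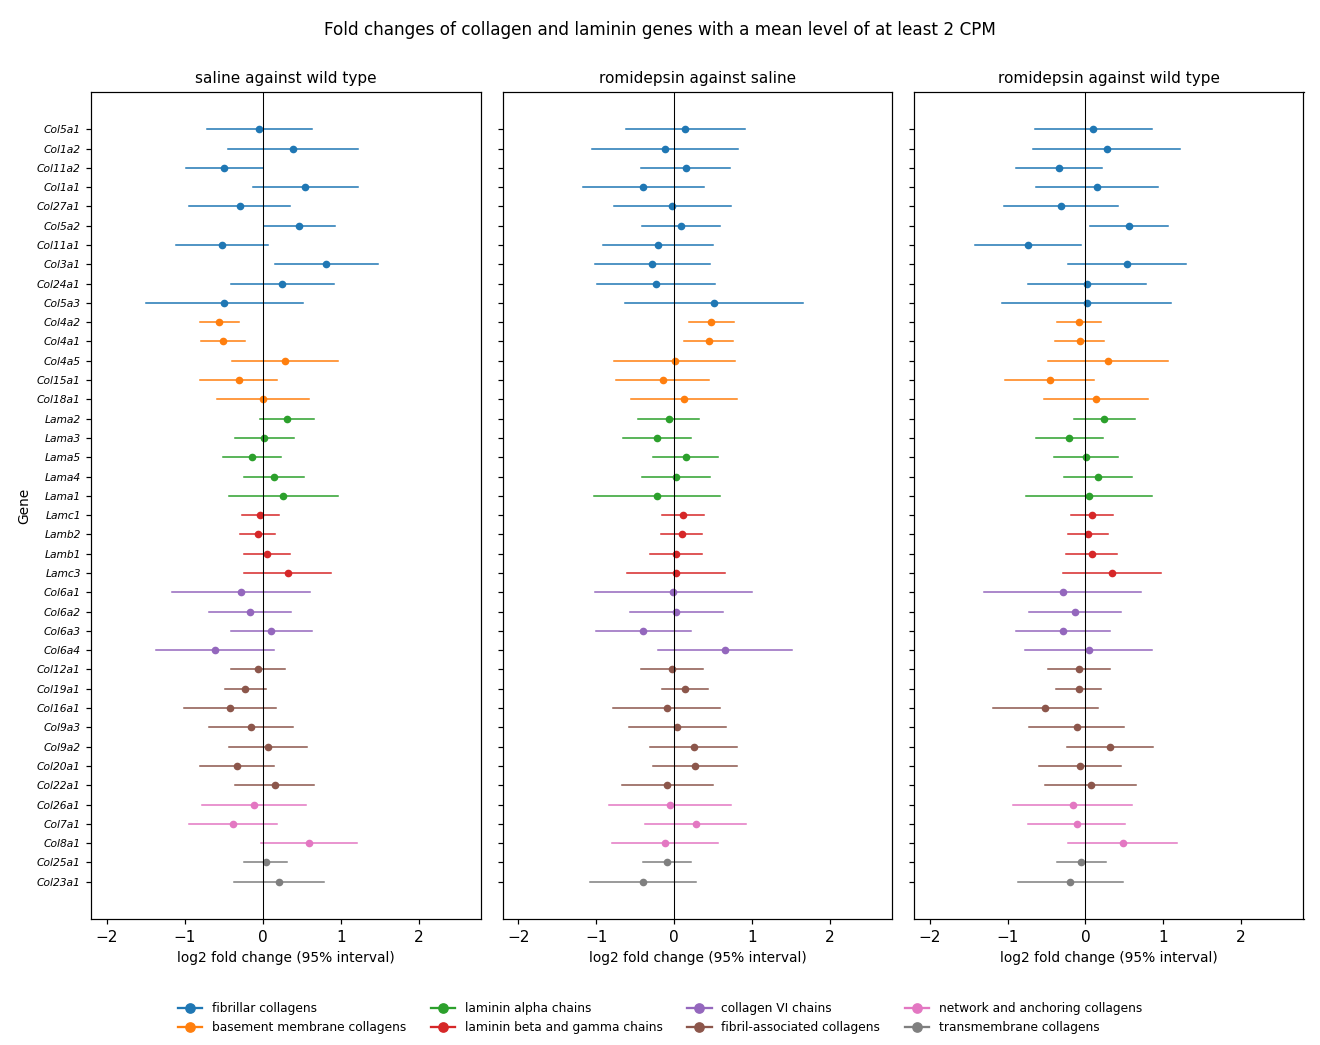
Log2 fold changes (points) and 95% intervals (lines) of 40 members with a mean of at least 2 CPM, coloured by class, in saline against wild type, romidepsin against saline and romidepsin against wild type. Col4a1 and Col4a2 have intervals below 0 in the first comparison and above 0 in the second, while the intervals of Lamb1 and Lamc1 span 0 in each.

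The members not yet described were expressed at low levels and none passed. Averaged over all libraries they lay between 0.894 CPM for Col9a1, a fibril-associated chain best known from cartilage, and 7.03 CPM for Lamc3, a laminin gamma chain. Lamc3 averaged 7.73, 7.51 and 6.07 CPM in the romidepsin, saline and wild-type groups, and Lamb3, an epithelial beta chain, averaged 1.17, 1.23 and 0.787 CPM. Col20a1 and Col9a2, both fibril-associated and named after their values were seen, were higher without overlap in romidepsin than in saline, with log2 fold changes of 0.27 and 0.25 (edgeR adjusted p = 1.00 for both). The remaining ones were Col7a1, Col13a1, Col14a1, Col17a1, Col22a1, Col26a1 and Col28a1. The lowest of them, Col28a1, averaged 1.07 CPM over all libraries.

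Members varied more between the libraries of a group than the median gene, without matching on level. Among genes averaging at least 5 CPM, the median coefficient of variation was 10.6% in the 31 members and 4.73% in all 11724 genes under romidepsin (2 libraries), 25.4% and 8.19% in the saline group, and 18.4% and 8.81% in wild type. Of the 54 members, 24 had their lowest level in the second saline library, as did 20.5% of all genes, and 17 had their highest in the third wild-type library, as did 20.6% of all genes. The first saline library held the highest level of 13 members and the lowest of 0, against 8.32% and 6.36% of all genes.

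Genes that process or bind these proteins had 0 members called in every list and comparison. Of 27 collagen processing and crosslinking genes, 14 were above wild type in the saline group (median log2 fold change 0.01) and 14 were above saline under romidepsin (0.0032). P3h3, a prolyl hydroxylase gene, and Lox, which crosslinks collagen, had the smallest p in saline against wild type, with log2 fold changes of -0.51 and 1.13 (edgeR adjusted p = 0.472 and 0.492). Lox was low, averaging 0.601 ± 0.268, 1.56 ± 0.487 and 0.707 ± 0.218 CPM in the romidepsin, saline and wild-type groups. Of 15 basement membrane linker and proteoglycan genes, 6 were above wild type in the saline group (median -0.04) and 10 were above saline under romidepsin (0.06). Pxdn, the peroxidase that forms sulfilimine crosslinks in collagen IV, stood at 91.3 and 64.8 CPM under romidepsin, 87.2, 69.2 and 95.3 in the saline group and 103, 106 and 117 in wild type. Wild type was highest without overlap (log2 fold change -0.38 in saline, edgeR adjusted p = 0.459, and -0.48 under romidepsin, edgeR adjusted p = 0.999).

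Of 15 genes of fibril-binding matrix proteins, 13 were above wild type in the saline group (median log2 fold change 0.39) and 6 were above saline under romidepsin (-0.08). Their median log2 deviation from the wild-type mean was 0.69 and 0.20 under romidepsin, 0.77, 0.42 and -0.14 in the saline group and -0.17, -0.20 and 0.33 in wild type, high in the same libraries as the meningeal fibroblast markers. Dcn and Lum belong to both lists, and the part of meningeal tissue was not tested here either. Thbs2, a matricellular gene that shapes collagen fibrils, averaged 6.95 ± 0.0942 CPM under romidepsin (SD, n = 2), 10.5 ± 0.265 in the saline group (n = 3) and 6.87 ± 0.111 in wild type (n = 3). Every saline library exceeded every other library, but Thbs2 did not pass in edgeR (adjusted p = 0.272 against wild type and 1.00 for romidepsin against saline). Ogn, a small proteoglycan gene, had a log2 fold change of 0.94 in saline against wild type (edgeR adjusted p = 0.502). Unlike Col1a1, Thbs2 was as high in the third saline library as in the others. Of 12 tested receptor genes, 5 were above wild type in the saline group (median -0.02) and 6 above saline under romidepsin (-0.0011). Ddr2, a receptor for fibrillar collagen, stood at 17.9 and 15.9 CPM under romidepsin, 21.5, 20.3 and 14.7 in the saline group and 12.4, 12.5 and 16.6 in wild type. Itga7, the alpha subunit of a laminin receptor, stood at 13.7 and 11.4 CPM under romidepsin, 11.4, 6.94 and 14.5 in the saline group and 14.2, 18.7 and 16.0 in wild type. Their log2 fold changes in saline against wild type were 0.46 and -0.59 (edgeR adjusted p = 0.439 and 0.456).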

How the data were processed

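The authors deposited 1 table of unnormalized read counts for each library, with genes given by symbol. Per the submitters' processing notes, bcl2fastq 2.17.1.14, TopHat2 2.1.1 and HTSeq 0.6.1 were used with build mm10/GRCm38. The labels state no annotation or strand setting, so reads where genes overlap on opposite strands may be misassigned or left out. Summary entries of the counter were left out, and 24420 genes common to all tables were kept. No pair of libraries agreed within sampling noise (smallest chi-square per degree of freedom 3.15).

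All genes with at least 0.5 CPM in at least 2 libraries (15666) were fitted in edgeR 4.0.16 (R 4.3.3), with TMM scaling and quasi-likelihood tests (robust dispersion) in 1 model of the 3 groups over all 8 libraries. Each SE is the absolute log2 fold change divided by the square root of its F. Genes passed at an adjusted p under 0.05. The labels do not say that libraries are separate animals, so p-values measure only the spread between libraries. Values ± are SD. Lengths are exon unions of GENCODE M21 (GRCm38), and promoters are from RefSeq (GRCm38.p6), matched by symbol for 39 of 54 members.

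The members and lists were chosen with earlier results of these data known. Any member could be named; fold changes are given for the 10 members with the smallest p per comparison (except Col4a3, with too few reads) and 7 main chains, and, of other lists, for up to 4 genes with the smallest p. The fit was checked on simulated counts for all tested genes. The results of 1 member are not reported here; it stays in the counts and medians over lists.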

Additional observations from a re-analysis of the deposited data

How the results depend on the processing

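Each comparison was refitted under 16 settings: other scalings, DESeq2 1.42.0, limma-voom 3.58.1, other low-count filters, only the groups compared, the replicate block, and each library left out. The count of members passing stayed at 0 in all of them except saline against wild type in DESeq2, where it was 1 (Col4a2). Under filterByExpr 49 members were tested. With the replicate block, which fits the title numbers as pairs, 0 members passed in each comparison, and the log2 fold change of Col4a1 in romidepsin against wild type turned to 0.0027. Same-numbered libraries correlated from -0.14 to 0.09 in their deviations from group means. Libraries of different number were not compared in this way, so these values cannot show whether the numbers pair libraries.

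With 1 library left out, the fibrillar median in saline against wild type ranged from -0.31 to 0.26, and the basement membrane median in romidepsin against saline from -0.15 to 0.16. The basement membrane median ranged from -0.16 to 0.074 in saline against wild type and from -0.07 to 0.16 in romidepsin against wild type. The fibrillar median ranged from -0.16 to 0.16 in romidepsin against saline and from -0.05 to 0.29 in romidepsin against wild type. The cause was not tested. Log2 fold changes that crossed 0 when 1 library was left out ranged, in saline against wild type, from -0.16 to 0.074 for Lamc1. In romidepsin against saline they ranged from -0.67 to 0.061 for Col1a1, -0.38 to 0.19 for Col1a2, -1.01 to 0.20 for Col3a1 and -0.26 to 0.11 for Lama2. In romidepsin against wild type they ranged from -0.20 to 1.01 for Col3a1, -0.0051 to 0.35 for Col1a1 and -0.12 to 0.021 for Col4a1. Chains with few reads, such as Col4a3, Col4a4 and Col8a2, are limited by depth.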
